A study of Rattus norvegicus with 31 samples.

Results

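Scd, Fasn, Thrsp and Acly are 4 genes of fatty acid synthesis that were followed in rat gastrocnemius, a calf muscle of mostly fast fibres. They were taken by symbol from the 11289 genes of the deposited tables, and all 4 were among the 10082 genes that passed a filter on low counts and were tested. They had been picked out because each was higher in cold-exposed Ucp1 knockout rats than in knockouts at room temperature, so that comparison is described here without a test. The groups were Ucp1 knockouts kept at 4 °C for 14 days (n = 8), controls kept at 4 °C for 14 days (n = 8), Ucp1 knockouts kept at room temperature over the same period (n = 7) and controls kept at room temperature (n = 8). All were female Sprague Dawley rats, 7 months old and fed the same chow, and each rat gave 1 library. Ucp1 encodes the uncoupling protein with which brown fat mitochondria make heat. How the knockout was made is not given in the sources used here, and genotype was taken from the labels, since Ucp1 itself is not analysed here.

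De novo lipogenesis builds fatty acids from citrate that leaves the mitochondria. Acly, ATP citrate lyase, splits that citrate in the cytosol into acetyl-CoA and oxaloacetate. Fasn, fatty acid synthase, joins the carbons into palmitate, and Scd, stearoyl-CoA desaturase, puts a double bond into saturated fatty acids. Thrsp, known as Spot 14, is a small protein whose gene answers to thyroid hormone and to carbohydrate feeding and which promotes lipogenesis. Liver and fat are the main sites of the pathway in rodents, and insulin and the transcription factors SREBP-1c and ChREBP drive it there. Skeletal muscle makes little fat of its own, and fat cells lie between its fibres.

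RNA was read with a QuantSeq 3′ kit, which counts 1 tag near the 3′ end of each transcript, so levels in CPM (counts scaled to the same total in each library) can be set side by side between genes without a length correction. The 31 libraries held 6.56 to 11.9 M counts, and the most alike of 105 pairs of libraries within a group still differed 4.995 times more than counting noise gives (chi-square per degree of freedom). The 7 muscle fibre markers tested, of 9 listed, summed to between 81766 and 134435 CPM in every library. Animals 1 and 2, both controls at room temperature, stood apart from the other libraries on the second principal component, which held 14.1% of the variance. They also held very little fat cell RNA: the adipocyte hormone gene Adipoq was at 0.63 and 0.313 CPM, and the fat droplet gene Cidec and the leptin gene Lep were at 0 in both. Tests that use control rats at room temperature are therefore given with and without them. The labels name no batch, litter or cage, and nothing in them pairs animals across groups.

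Scd had the largest difference. Its lowest, median and highest levels were 3.47, 39.0 and 76.3 CPM in cold knockouts and 4.13, 7.99 and 15.5 CPM in cold controls. They were 0, 0.775 and 3.61 CPM in knockouts at room temperature, and 0, 1.26 and 7.10 CPM in controls at room temperature. In each room temperature group 1 library had no Scd count at all, whereas cold knockouts had 32 to 873 counts. The lowest cold knockout fell inside the range of knockouts at room temperature, and the other 7 lay above it.

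Fasn followed the same order of groups. Its lowest, median and highest levels were 5.30, 30.6 and 82.7 CPM in cold knockouts, 7.17, 14.2 and 27.3 CPM in cold controls, 2.92, 4.13 and 5.86 CPM in knockouts at room temperature, and 1.77, 4.66 and 9.84 CPM in controls at room temperature. Of the 8 cold knockouts 7 lay above every knockout at room temperature, and 4 lay above every cold control.

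Thrsp was the most abundant of the 4 in every group and the only one whose cold and room temperature groups did not overlap in either genotype. Its lowest, median and highest levels were 33.5, 107 and 266 CPM in cold knockouts, 25.3, 36.2 and 59.0 CPM in cold controls, 9.51, 12.7 and 16.8 CPM in knockouts at room temperature, and 4.07, 18.4 and 22.7 CPM in controls at room temperature. All 8 cold rats of each genotype exceeded every room temperature rat of that genotype. The share of all genes that did not overlap between these groups is not given here. By a different measure, 1.02% of all genes tested passed as higher in the cold in knockouts and 0.595% in controls (edgeR, adjusted p under 0.05). Thrsp itself did not pass in controls.

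Acly moved least. Its lowest, median and highest levels were 11.8, 19.5 and 42.7 CPM in cold knockouts, 6.38, 12.6 and 16.8 CPM in cold controls, 7.52, 11.4 and 15.7 CPM in knockouts at room temperature, and 9.88, 12.9 and 15.1 CPM in controls at room temperature. The other 3 groups overlapped one another, and 4 of the 8 cold knockouts lay above all cold controls. At room temperature the order of mean levels was Thrsp, Acly, Fasn, Scd in both genotypes, and in cold knockouts it was Thrsp, Fasn, Scd, Acly. The ranges of Thrsp and Acly overlapped at room temperature, as did those of Fasn, Scd and Acly in cold knockouts.

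**Figure D1:**
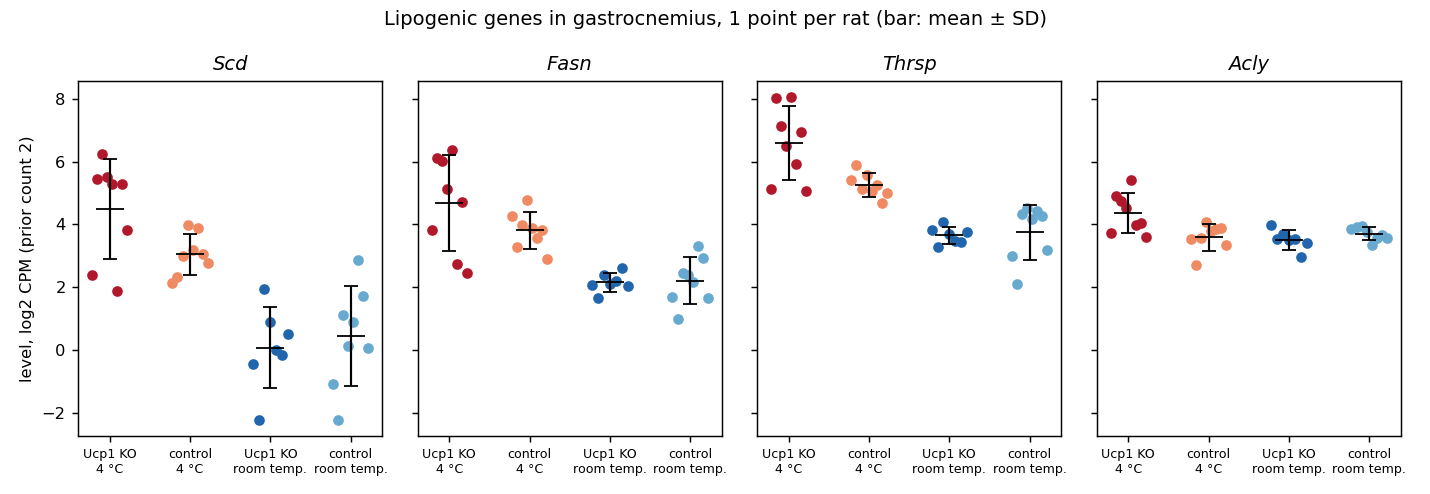
Level of each gene in every rat as log2 CPM (prior count 2, added to the counts before the log), with cold knockouts, cold controls, room temperature knockouts and room temperature controls from left to right; the black bar is the mean ± SD. Cold knockouts spread over the widest range for Fasn, Thrsp and Acly, and the mean of Acly lies between 3.52 and 3.71 in the other 3 groups.

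The promoter windows of 3 of the genes are shown, each of which had a higher mean level in cold than in room temperature knockouts. These are the RefSeq promoter windows on assembly GRCr8, from 250 bases before to 50 bases after the start of the gene, all on the minus strand and written 5′ to 3′ along the gene. Scd lies at chr1:253231682-253231981, Thrsp at chr1:161138915-161139214 and Acly at chr10:85963582-85963881; Fasn was not matched. Capitals mark matches to the box read by NF-Y, CCAAT, and to the GC box read by Sp1, which is GGGCGG, each searched on both strands.
Scd: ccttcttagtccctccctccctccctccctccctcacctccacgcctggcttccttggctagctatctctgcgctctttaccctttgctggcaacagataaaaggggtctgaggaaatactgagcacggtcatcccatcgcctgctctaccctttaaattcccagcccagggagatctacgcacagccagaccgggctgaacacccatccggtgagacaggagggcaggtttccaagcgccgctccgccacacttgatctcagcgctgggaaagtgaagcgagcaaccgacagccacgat
Thrsp: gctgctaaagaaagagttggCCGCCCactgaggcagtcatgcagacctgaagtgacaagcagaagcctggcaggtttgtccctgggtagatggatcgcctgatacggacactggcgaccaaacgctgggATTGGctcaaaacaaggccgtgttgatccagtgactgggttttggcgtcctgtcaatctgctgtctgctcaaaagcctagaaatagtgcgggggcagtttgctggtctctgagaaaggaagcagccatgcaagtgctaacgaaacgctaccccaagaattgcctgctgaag
Acly: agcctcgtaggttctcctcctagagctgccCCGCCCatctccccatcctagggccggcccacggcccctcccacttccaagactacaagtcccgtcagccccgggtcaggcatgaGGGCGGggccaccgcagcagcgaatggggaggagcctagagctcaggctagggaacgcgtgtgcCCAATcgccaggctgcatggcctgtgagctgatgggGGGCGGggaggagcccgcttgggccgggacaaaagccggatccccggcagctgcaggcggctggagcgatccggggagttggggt
The window of Thrsp held 1 NF-Y box, starting 121 bases before the gene on the reverse strand, and 1 GC box, and that of Acly held 1 NF-Y box, starting 71 bases before the gene, and 3 GC boxes. Neither was in the window of Scd, and no matches overlapped. Among 33469 RefSeq windows of the same length, 37.5% held the NF-Y box and 33.1% the GC box, so both are common. Neither the E-box CACGTG (in 6.42% of windows), nor the sterol element TCACCCCAC (0.484%), nor the nuclear receptor half-site AGGTCA (16.2%), nor the TATA box TATAAA (14.2%) was in any of the 3 windows. These are matches of letters and not binding sites.

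In knockouts the cold level exceeded the room temperature level by 4.80 ± 0.71 on the log2 scale for Scd, 3.33 ± 0.40 for Thrsp, 3.13 ± 0.47 for Fasn and 0.97 ± 0.22 for Acly (edgeR log2 fold change ± SE, n = 8 and 7). The fitted folds were 27.9 for Scd, 10.1 for Thrsp, 8.77 for Fasn and 1.95 for Acly. Among all 10082 genes ordered by this change, Scd stood at rank 2, Thrsp at rank 3, Fasn at rank 4 and Acly at rank 146. All 4 passed an adjusted p of 0.05 in the higher direction, as did 1.02% of all genes tested (103 genes), but the genes had been chosen by this comparison and nothing is read from the count.

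The same question in controls rests on other animals, although these values too were known when the genes were chosen. Mean levels in cold and room temperature controls were 8.83 ± 4.19 and 1.97 ± 2.30 CPM for Scd, 14.8 ± 6.22 and 4.96 ± 2.63 CPM for Fasn, 39.0 ± 10.5 and 15.2 ± 7.13 CPM for Thrsp, and 12.3 ± 3.25 and 12.95 ± 1.86 CPM for Acly (SD, n = 8 each). The log2 differences were 2.13 ± 0.61 for Scd (adjusted p = 0.0852), 1.58 ± 0.43 for Fasn (adjusted p = 0.0673) and 1.36 ± 0.36 for Thrsp (adjusted p = 0.0579), by the quasi-likelihood test of edgeR, adjusted by Benjamini-Hochberg over all genes. None of the 4 passed, where 0.595% of all genes passed in the higher direction, and 3 of the 4 had an unadjusted p under 0.05, as 14.2% of all genes did. The Acly difference was -0.07 ± 0.21 (adjusted p = 0.896), with a 95% interval for the fold of 0.703 to 1.29. Without animals 1 and 2 the differences were 1.74 ± 0.61 for Scd, 1.35 ± 0.46 for Fasn, 1.10 ± 0.35 for Thrsp and -0.00201 ± 0.23 for Acly. These calls depended on the tool: DESeq2 passed Fasn (adjusted p = 0.0130) and Thrsp (adjusted p = 0.0126) but not Scd.

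Within the cold, the knockouts had the higher mean level of every one of the 4 genes. Means in cold knockouts and cold controls were 33.2 ± 24.6 and 8.83 ± 4.19 CPM for Scd, 38.0 ± 30.5 and 14.8 ± 6.22 CPM for Fasn, 127 ± 93.6 and 39.0 ± 10.5 CPM for Thrsp, and 22.4 ± 10.5 and 12.3 ± 3.25 CPM for Acly (SD, n = 8 each). The log2 differences were 1.91 ± 0.56 for Scd (adjusted p = 0.576), 1.35 ± 0.41 for Fasn (adjusted p = 0.576), 1.70 ± 0.35 for Thrsp (adjusted p = 0.0906) and 0.86 ± 0.21 for Acly (adjusted p = 0.377), again by edgeR. None passed, where 0.00992% of all genes passed (1 gene), and all 4 had an unadjusted p under 0.05, as 6.28% of all genes did. The cold knockouts are the same libraries by which the genes were chosen. With DESeq2 Thrsp passed (adjusted p = 0.00381), and it also passed in edgeR without animals 1 and 2 (adjusted p = 0.0423).

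At room temperature the 4 genes did not pass between genotypes. The log2 differences, knockout minus control, were -0.76 ± 0.71 for Scd, -0.20 ± 0.45 for Fasn, -0.27 ± 0.37 for Thrsp and -0.18 ± 0.22 for Acly, with adjusted p from 0.861 to 0.965 in edgeR. The 95% intervals for the fold were 0.215 to 1.62 for Scd, 0.456 to 1.66 for Fasn, 0.488 to 1.40 for Thrsp and 0.646 to 1.21 for Acly. Without animals 1 and 2 they were -1.16 ± 0.69 for Scd, -0.43 ± 0.48 for Fasn, -0.54 ± 0.36 for Thrsp and -0.11 ± 0.24 for Acly. Single libraries moved these small differences: Scd stood at -1.31 without room temperature knockout 11 and at -0.07 without room temperature control 6. Acly stood at -0.27 without room temperature knockout 9 and at -0.09 without knockout 14, and Thrsp at -0.42 without control 2 and at -0.18 without control 4. Fasn stood at -0.33 without control 2, at -0.12 without knockout 10, at -0.09 without control 7 and at 0.0227 without control 6. No gene passed in the whole table (0% of genes) in edgeR; 7.06% of genes and none of the 4 had an unadjusted p under 0.05, and DESeq2 passed 1 gene.

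Whether cold acted differently in the knockouts was tested as the difference between the cold effects, which holds the choosing comparison as a part. It was 2.67 ± 0.90 on the log2 scale for Scd (adjusted p = 0.538), 1.56 ± 0.61 for Fasn (adjusted p = 0.597), 1.97 ± 0.51 for Thrsp (adjusted p = 0.452) and 1.04 ± 0.31 for Acly (adjusted p = 0.452), by edgeR. No gene of the table passed (0% of genes; DESeq2 passed 1), while 7.31% of genes and all 4 of these had an unadjusted p under 0.05. As a ratio of the cold fold in knockouts to the cold fold in controls, the 95% interval was 1.33 to 3.17 for Acly. It was 1.76 to 22.9 for Scd, 1.23 to 7.01 for Fasn and 1.90 to 8.14 for Thrsp. These intervals are not adjusted for the number of genes tested. Without animals 1 and 2 the differences between the cold effects were 3.07 ± 0.85 for Scd, 1.79 ± 0.62 for Fasn, 2.24 ± 0.48 for Thrsp and 0.98 ± 0.32 for Acly, and none passed.

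**Figure D2:**
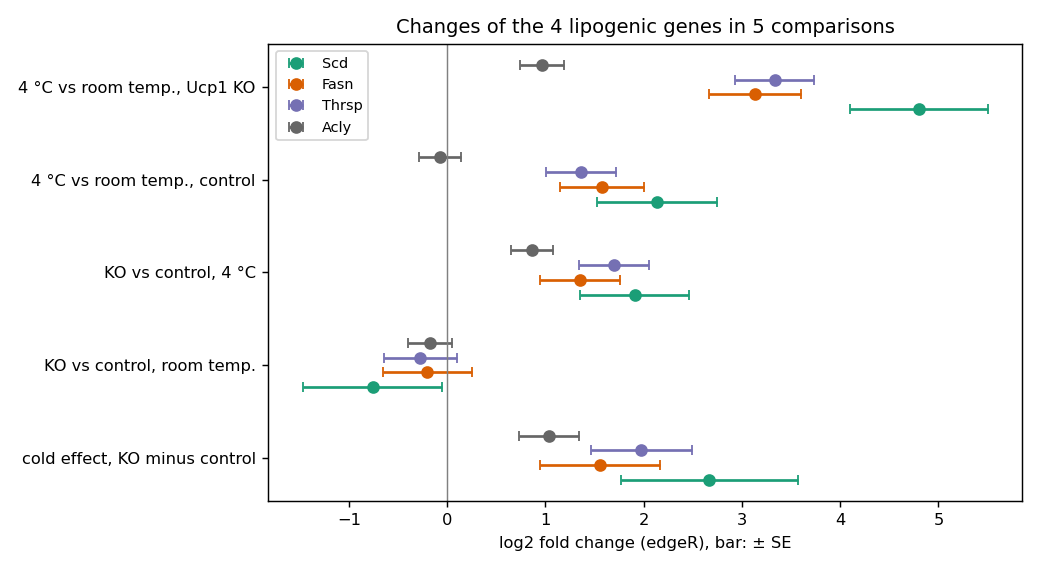
Log2 fold changes ± SE of the 4 genes in 5 comparisons from the fit to all 31 libraries, each as the first-named condition over the second. Scd, Fasn and Thrsp lie above 0 in both cold comparisons, and Acly lies at 0.97 in knockouts and at -0.07 in controls.

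The cold knockouts spread over a wider range than the cold controls, a difference in spread that was not tested. The SD of the log2 level was 1.60 in cold knockouts and 0.66 in cold controls for Scd, 1.53 and 0.58 for Fasn, 1.17 and 0.37 for Thrsp, and 0.63 and 0.43 for Acly. Cold knockouts 24, 29 and 31 held the 3 lowest levels of all 4 genes. Their levels were 5.03, 3.47 and 14.1 CPM for Scd and 35.0, 60.1 and 33.5 CPM for Thrsp, whereas the other 5 cold knockouts ran up to 76.3 CPM for Scd and 266 CPM for Thrsp. Cold knockout 28 had the highest Fasn, Thrsp and Acly, at 82.7, 266 and 42.7 CPM, and animal 26 the highest Scd. Cold knockouts 25 and 28, the 2 highest in Thrsp and Acly, were among 7 libraries at one end of the first principal component, which held 35.3% of the variance; the others were cold controls 17 and 23, room temperature knockouts 9 and 12 and room temperature control 1. Without these 7 libraries, an alternative added after the data were seen, the log2 difference between cold knockouts and cold controls was 1.63 ± 0.63 for Scd, 0.57 ± 0.43 for Fasn, 1.13 ± 0.33 for Thrsp and 0.38 ± 0.17 for Acly. The difference between the cold effects was then 2.52 ± 1.07 for Scd, 0.82 ± 0.65 for Fasn, 1.53 ± 0.49 for Thrsp and 0.63 ± 0.25 for Acly, and none of these passed.

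Within the 8 cold knockouts all 6 pairs of these genes varied in the same direction, with Pearson's r of 0.662 to 0.917 across animals on the log2 scale. Of these, 3 pairs passed a two-sided exact permutation test, adjusted over the 40 relations computed (6 pairs and 4 relations with fat cell RNA in each of 4 groups). These were Thrsp with Acly (r = 0.917, adjusted p = 0.0191; Spearman's rho = 0.976, adjusted p = 0.00794), Fasn with Acly (r = 0.901, adjusted p = 0.0230; rho = 0.976, adjusted p = 0.00794) and Fasn with Thrsp (r = 0.893, adjusted p = 0.0249; rho = 0.952, adjusted p = 0.0114), each by the exact test. Without the 2 animals farthest from the median of the first gene, r was 0.840, 0.957 and 0.922 in the same order. Scd was less closely tied to the other 3 (r = 0.810 with Fasn, 0.727 with Thrsp and 0.662 with Acly) and none of these passed (adjusted exact permutation p from 0.0802 to 0.191). In cold controls r ran from -0.48 to 0.753 and in knockouts at room temperature from -0.43 to 0.821, and no pair passed in either. The differences between groups in r were not tested. Over all 8 room temperature controls 3 pairs passed the same exact permutation test: Scd with Fasn (r = 0.952, adjusted p = 0.0191; rho = 0.952, adjusted p = 0.0114), Fasn with Thrsp (r = 0.889, adjusted p = 0.0191; rho = 0.810, adjusted p = 0.109) and Scd with Thrsp (r = 0.853, adjusted p = 0.0249; rho = 0.738, adjusted p = 0.204). Controls 1 and 2 stand apart there, low in all of Scd, Fasn and Thrsp. Over the other 6 Scd and Fasn had r = 0.902 (exact permutation p = 0.0153, adjusted over 10 relations 0.153; rho = 0.943, exact p = 0.0167, adjusted 0.167), and no pair passed.

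Genes whose deviations from the group means ran most like the mean of the 4 over the 31 libraries, among 6689 genes ranked, were Abcd2 (r = 0.741), a peroxisomal fatty acid transporter, Igfbp5 (0.729), an insulin-like growth factor binding protein, Wfdc1 (0.721), Rbp4 (0.721), the retinol carrier, and Bok (0.719), of the Bcl-2 family. Chordc1 (0.714), Tkt (0.711), Aifm2 (0.696), Osbpl1a (0.694) and Fabp3 (0.689), the fatty acid binding protein of heart and muscle, came next. These r are descriptions. The closest to single genes were Sparc for Scd (0.780), Wfdc1 for Fasn (0.792), the fat cell hormone gene Retn for Thrsp (0.783) and Macf1 for Acly (0.571). Of these neighbours Tkt and Retn passed as higher in cold knockouts than in room temperature knockouts.

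Of 16 other genes of fatty acid synthesis listed, 11 were tested, and Acaca and Elovl6 were not among the tested genes. None of the 11 tested genes passed in any of the 5 comparisons. Their median log2 difference between cold and room temperature knockouts was 0.32, against 0.02 for all genes. Slc25a1, the mitochondrial citrate carrier that feeds Acly, had a difference of 1.02 ± 0.37 (adjusted p = 0.164). Pnpla3, a lipid droplet protein, had 1.29 ± 0.52 (adjusted p = 0.230), and Elovl1, which elongates fatty acids, had 0.43 ± 0.20 (adjusted p = 0.308). Scd2, a close relative of Scd whose reads may be hard to tell from it, had 0.18 ± 0.27 (adjusted p = 0.848), and Me1, a source of NADPH for lipogenesis, had -0.26 ± 0.13 (adjusted p = 0.346).

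Fatty acid synthesis consumes NADPH, and of 5 genes that supply it 1 passed: Tkt, transketolase of the pentose phosphate pathway, was higher in cold than in room temperature knockouts by 0.68 ± 0.17 (adjusted p = 0.0371). All 5 differences were above 0, with a median of 0.51. None of 13 genes of triglyceride synthesis passed, and Dgat2, which makes the last step to triglyceride, came nearest at 0.61 ± 0.17 (adjusted p = 0.0603). None of 13 regulators tested, of 16 listed, passed either, and the gene of ChREBP was not among the 13. Srebf1, which encodes SREBP-1, differed by 0.51 ± 0.35 (adjusted p = 0.556) and Usf2, a factor that binds lipogenic promoters, by 0.28 ± 0.15 (adjusted p = 0.392). These are transcript levels and do not measure how far SREBP-1 was processed to its active form.

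None of the genes tested for cholesterol synthesis (11 of 16 listed), fatty acid oxidation (12 of 12) or insulin and glucose (9 of 10) passed in cold knockouts. Their median differences were 0.13, 0.01 and 0.06. Among 7 thyroid hormone genes tested, of 11 listed, Crym, which encodes a thyroid hormone binding protein, was the 1 that passed. It differed by 2.51 ± 0.42 (adjusted p = 0.00116) in knockouts and by 1.43 ± 0.39 (adjusted p = 0.0673) in controls. Klf9, a thyroid hormone target, differed by 0.46 ± 0.22 (adjusted p = 0.329) in knockouts. In cold controls no gene of these 8 lists passed. Among the muscle fibre markers Myh7, the slow myosin heavy chain, was higher in the cold by 0.78 ± 0.16 (adjusted p = 0.00898) in knockouts and by 0.97 ± 0.16 (adjusted p = 0.00164) in controls. All p-values in these lists are from edgeR's quasi-likelihood test.

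**Figure D3:**
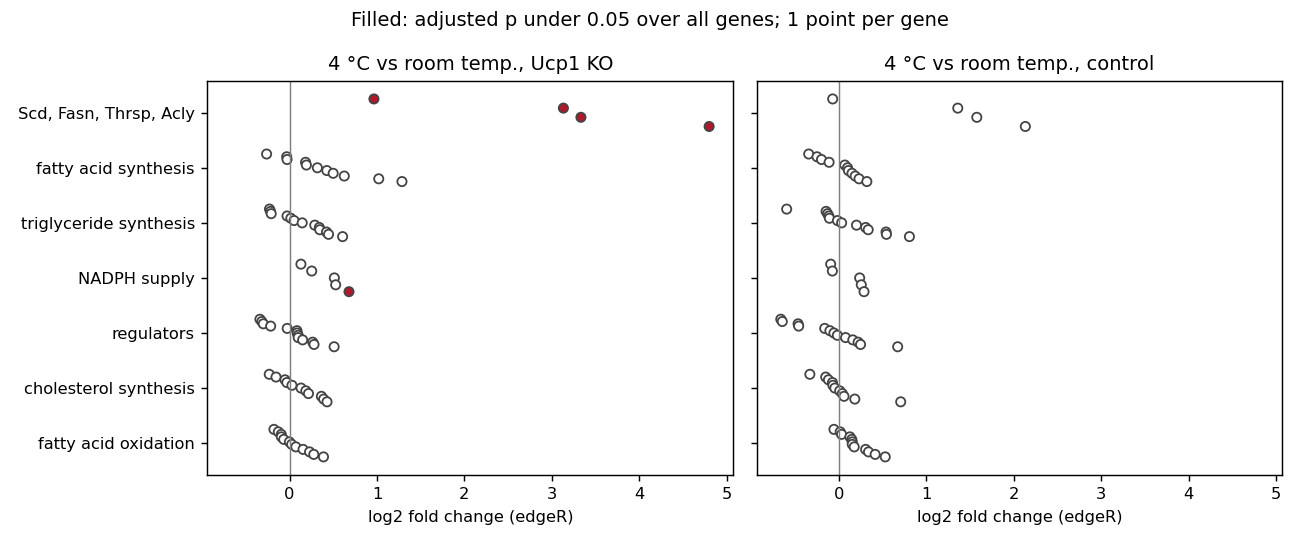
Log2 fold change of cold over room temperature for the 4 genes and the genes of 6 lists, in knockouts on the left and controls on the right, 1 point per gene; filled points passed an adjusted p of 0.05. Scd, Fasn and Thrsp lie to the right of every gene of these lists in knockouts, and Tkt is the 1 filled point among the lists; the 4 genes were chosen by the comparison on the left.

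Fat cell RNA moved in the same direction as the 4 genes in cold against room temperature knockouts. Of 14 white adipocyte markers 11 were tested, and their summed level had a lowest, median and highest value of 1213, 1706 and 2285 CPM in cold knockouts, 1081, 1203 and 1390 CPM in cold controls, 974.6, 1058 and 1271 CPM in knockouts at room temperature and 501, 1096 and 1224 CPM in controls at room temperature. In cold against room temperature knockouts all 11 differences were above 0, with a median of 0.90 against 0.02 for all genes. Retn passed, at 2.41 ± 0.54 (adjusted p = 0.0169), while Adipoq differed by 1.47 ± 0.48 (adjusted p = 0.109), Plin1 by 1.32 ± 0.44 (adjusted p = 0.130), Cidec by 1.25 ± 0.46 (adjusted p = 0.177), Lep by 0.90 ± 0.50 (adjusted p = 0.418) and Cfd by 0.81 ± 0.40 (adjusted p = 0.347), by edgeR. Between cold knockouts and cold controls 10 of the 11 differences were above 0, with Tnmd below. In cold against room temperature controls 8 of the 11 were above 0, with Fabp4, Lep and Pck1 below. That count includes controls 1 and 2. Without them the mean of Adipoq in room temperature controls was 21.3 CPM instead of 16.1, against 23.5 CPM in cold controls. The mean of the marker sum was then 1131 CPM instead of 974, against 1205 CPM in cold controls. In whole muscle a larger share of fat cells and more RNA per fat cell cannot be told apart. Lpl, which muscle fibres also express, made up 50.5% of the sum, and Cfd 28.03%. The 5 Schwann cell markers tested had medians of 187, 171, 191 and 226 CPM in the same order of groups, 3 hepatocyte markers were not analysed here, and Ppargc1a was the only 1 of 5 brown fat markers tested.

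Cold knockouts 24, 29 and 31, lowest in the 4 lipogenic genes, were also lowest in summed fat cell markers, at 1476, 1213 and 1290 CPM. Within cold knockouts the r of this sum was 0.768 with Scd, 0.783 with Fasn, 0.763 with Thrsp and 0.531 with Acly, with rho from 0.619 to 0.714, and none passed (adjusted exact permutation p from 0.0820 to 0.318 for r and from 0.209 to 0.287 for rho). Leaving out the 2 animals farthest from the median of the sum gave r of 0.682 with Scd, 0.907 with Fasn, 0.903 with Thrsp and 0.809 with Acly. In room temperature controls the sum had r = 0.868 with Scd (adjusted exact permutation p = 0.0191; rho = 0.881, adjusted p = 0.0579) and r = 0.893 with Thrsp (adjusted exact permutation p = 0.0230; rho = 0.714, adjusted p = 0.209) over all 8, which passed by r. Over the 6 without controls 1 and 2 these r were 0.684 and 0.750, and neither passed (exact permutation p = 0.129 and 0.114, both 0.314 adjusted over 10 relations). No relation with the sum passed in cold controls or in knockouts at room temperature. Controls 1 and 2 at room temperature, nearly without fat cell RNA, had 0.252 and 0 CPM of Scd, 3.03 and 1.77 CPM of Fasn and 7.82 and 4.07 CPM of Thrsp, but 14.4 and 15.02 CPM of Acly. Acly in these muscles thus lay inside the range of its group, 9.88 to 15.1 CPM. How far fat cell RNA sets the levels of the 4 genes was not tested beyond the ratios and covariate fits that follow.

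**Figure D4:**
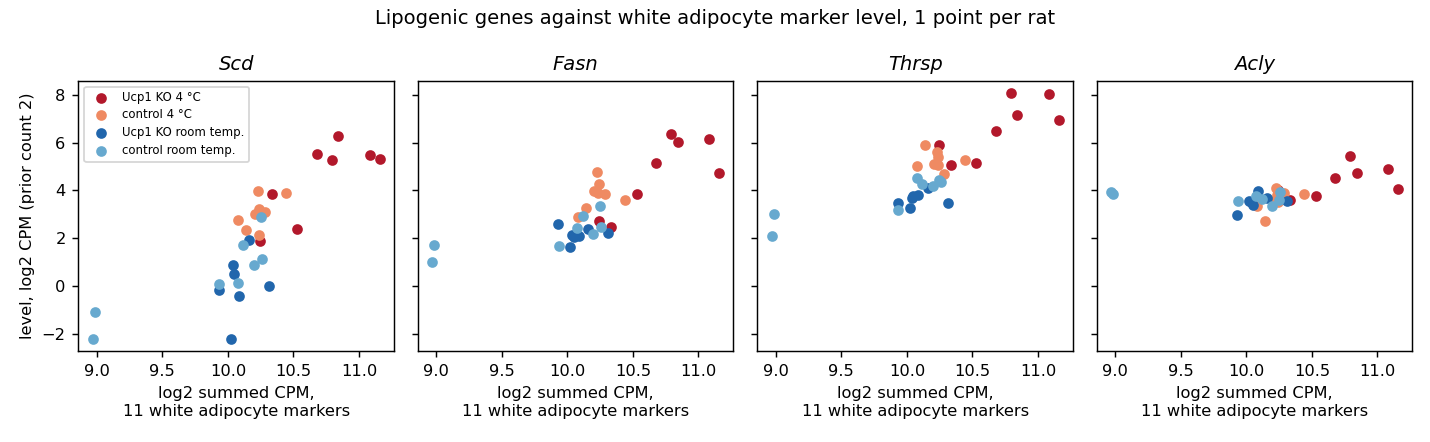
Level of each gene (log2 CPM, prior count 2) against the log2 summed CPM of 11 white adipocyte markers, 1 point per rat. The 2 points at the far left are room temperature controls 1 and 2, which are low in Scd, Fasn and Thrsp and not in Acly.

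Divided by Adipoq, the lipogenic genes other than Acly had higher medians in the cold in both genotypes. Scd per Adipoq had a median of 0.574 in cold knockouts (0.127 to 1.15), 0.345 in cold controls (0.145 to 0.712), 0.0451 in knockouts at room temperature (0 to 0.194) and 0.0896 in the 6 controls at room temperature with fat cell RNA (0.0573 to 0.226). Thrsp per Adipoq had a median of 2.09 in cold knockouts (1.04 to 7.61), 1.80 in cold controls (0.888 to 2.30), 0.721 in knockouts at room temperature (0.601 to 0.903) and 0.755 in those 6 controls (0.622 to 1.90). The cold and room temperature knockouts did not overlap in this ratio, and the share of all genes without overlap per Adipoq is not given here. Fasn per Adipoq had a median of 0.823 in cold knockouts (0.164 to 2.37), 0.614 in cold controls (0.285 to 1.25), 0.238 in knockouts at room temperature (0.194 to 0.328) and 0.295 in those 6 controls (0.149 to 0.426). Cold knockouts 29 and 30, at 0.234 and 0.278, lay inside the range of room temperature knockouts, and cold knockout 31, at 0.164, lay below it. Acly per Adipoq had medians of 0.530, 0.556, 0.662 and 0.718 in the same order of groups. Over all 8 room temperature controls the medians were 0.0896 for Scd, 0.337 for Fasn, 1.097 for Thrsp and 1.06 for Acly.

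With the summed fat cell level as a covariate, chosen with earlier results known, the cold difference in knockouts was 2.20 ± 0.72 for Scd, 1.81 ± 0.50 for Fasn, 2.11 ± 0.35 for Thrsp and 0.84 ± 0.27 for Acly, given as a description because the genes were chosen by this comparison. Between cold knockouts and cold controls it left -0.12 ± 0.49 for Scd, 0.32 ± 0.43 for Fasn, 0.71 ± 0.31 for Thrsp and 0.76 ± 0.24 for Acly. The Scd value turned below 0, by less than its SE. The values rest in part on controls 1 and 2. Without them the same fit gave 2.18 ± 0.76 for Scd, 0.67 ± 0.63 for Fasn, 1.69 ± 0.43 for Thrsp and 0.21 ± 0.32 for Acly in knockouts. Between cold knockouts and cold controls it gave -0.13 ± 0.60 for Scd, -0.56 ± 0.53 for Fasn, 0.38 ± 0.38 for Thrsp and 0.28 ± 0.27 for Acly. With the mean log2 level of the 6 defining markers instead, in all libraries, the differences in knockouts were 2.70 ± 0.66 for Scd, 2.47 ± 0.46 for Fasn, 2.59 ± 0.33 for Thrsp and 0.98 ± 0.25 for Acly. Between cold knockouts and cold controls they were 0.23 ± 0.60 for Scd, 0.86 ± 0.40 for Fasn, 1.17 ± 0.29 for Thrsp and 0.87 ± 0.23 for Acly, so the Scd value was above 0 under this covariate. The last 2 covariate fits were added after the data were seen.

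**Figure D5:**
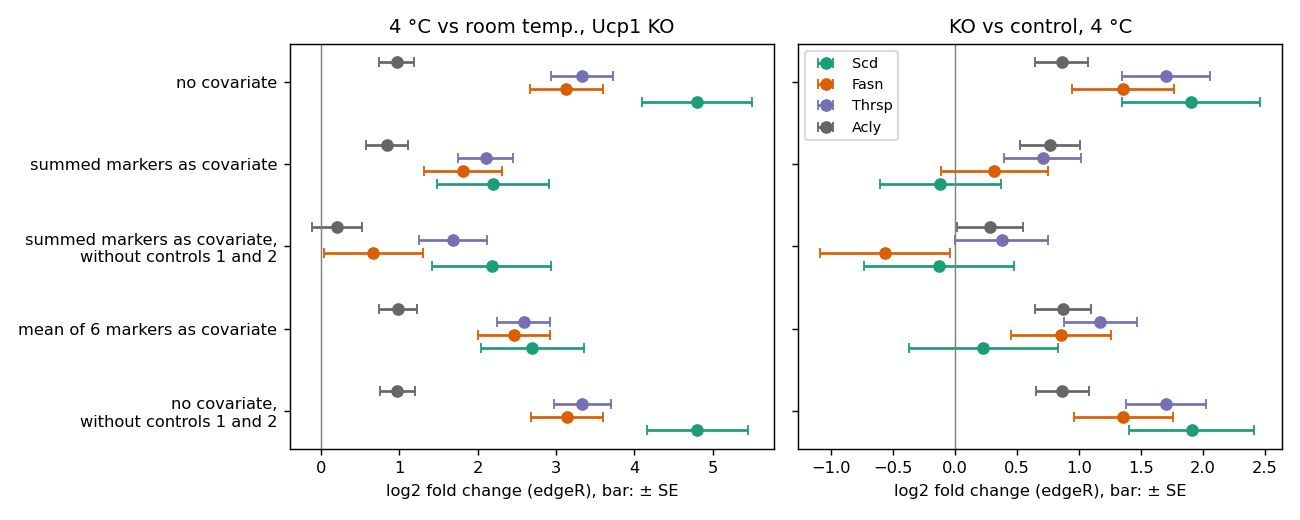
Log2 fold change ± SE of the 4 genes with and without a fat cell covariate, for cold over room temperature in knockouts (left) and knockout over control in the cold (right). Scd, Fasn and Thrsp shrink under each covariate. On the left Acly shrinks to 0.21 with the summed markers as covariate and controls 1 and 2 left out. With these controls left out and no covariate it stays at 0.97.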

How the data were processed

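The authors deposited a table of raw counts of reads per gene and a table of normalized signal, which is the counts divided by size factors. DESeq2 1.22.2 and the genome build Rnor 6.0 are named in the submitters' processing notes; which aligner, counter and strand setting were used is not given in the sources used here. Both tables hold 11289 genes, and no gene totals under 93 counts. From the counts, edgeR 4.0.16 (R 4.3.3) fitted 1 mean per group by quasi-likelihood to all 31 libraries after TMM scaling and filterByExpr (minimum count 10, minimum total 15), leaving 10082 genes and 27 residual degrees of freedom. P-values are two-sided and adjusted by Benjamini-Hochberg over all genes in each comparison, with a threshold of 0.05. P-values and intervals both rest on the spread between these animals as the fit estimates it, and neither covers error outside the fitted model. SE is the change over the square root of F, and 95% intervals use 27 degrees of freedom. Log2 levels use a prior count of 2. Permutation tests used scipy 1.17.1. The fit was tested on simulated data. The members and lists were chosen with earlier results of these data known. Of each list, up to 4 genes by p in cold knockouts and any passing gene could be named, besides all defining fat cell markers and the genes most like the members (mean of at least 5 CPM); Scd2, Me1, Srebf1 and Ppargc1a were added after their values were seen. Alternatives were another scaling, no filter, DESeq2 1.42.0, only the groups compared, fat cell or principal component covariates, and leaving out libraries.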

Additional observations from a re-analysis of the deposited data

Results flagged for a closer look

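Scd in room temperature control 6 stood at 7.10 CPM, far above the other 7 rats of its group in CPM (Dixon's test, 95% critical value 0.526 for 8 animals). It was the 1 flag among 20 sets of values tested, each within 1 group, and chance flags about 1 in 20. The distance depends on the scale. In log2 CPM control 6 stood at 2.87 and control 7 at 1.73, while control 2 stood at -2.22. Without this rat Scd passed between cold and room temperature controls, at a log2 difference of 2.82 (edgeR, adjusted p = 0.0350; adjusted p from 0.0350 to 0.175 over all libraries left out in turn).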

How the results depend on the processing

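All log2 differences of the 4 genes kept their direction and their side of the threshold with DESeq2 size factors in edgeR and with no filter on low counts. In knockouts, cold against room temperature, where the genes were chosen and calls are only a description, the summed fat cell covariate left Scd at 2.20, not passing, and the same covariate without controls 1 and 2 left Scd at 2.18, Fasn at 0.67, Thrsp at 1.69 and Acly at 0.21, none passing; Acly at 0.97 did not pass with only the groups compared. In controls, Scd at 2.16, Fasn at 1.54 and Thrsp at 1.201 passed with the first component as covariate, Fasn at 1.58 and Thrsp at 1.36 passed with DESeq2, Fasn at 1.58 and Thrsp at 1.36 passed with only the groups compared, and Acly turned to 0.10 without the 7 libraries at the end of the first component. In knockouts against controls in the cold, Thrsp passed with DESeq2 (1.69), without controls 1 and 2 (1.70) and with the first component (1.63); Scd turned to -0.12 with the summed covariate and, without controls 1 and 2, Scd turned to -0.13 and Fasn to -0.56. The difference between cold effects turned to -0.41 for Fasn in that last fit. The cause of these changes was not tested. The fits on the first component, without the 7 libraries, and with the covariate but without controls 1 and 2 were chosen after seeing the data.

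Leaving out each library in turn, Acly in cold against room temperature knockouts ran from 0.77 to 1.06. It did not pass without room temperature knockout 14 (0.86). The genes were chosen by this comparison, so its calls are only a description. In controls Scd ran from 1.93 to 2.82 and passed without room temperature control 6, Fasn from 1.39 to 1.80, passing without cold knockout 28, 29 or 31 or room temperature control 6, Thrsp from 1.218 to 1.46, passing without cold knockout 24, 25, 28 or 31 or room temperature control 4, and Acly from -0.15 to 0.0215, turning without cold control 17. Thrsp in knockouts against controls in the cold ran from 1.45 to 1.84 and passed without cold knockout 24 or 31 or room temperature control 2. Fasn at room temperature ran from -0.33 to 0.0227, turning without room temperature control 6. The number of genes passing in either direction in cold knockouts was 139, against 328 with DESeq2, 53 with only the groups compared, 379 without controls 1 and 2, 674 with the first component and 809 with the summed fat cell covariate. With that covariate and without controls 1 and 2 the number was 86. In cold controls it was 86, against 220 with DESeq2, 38 without controls 1 and 2, 379 with the first component and 33 with the summed covariate. With the summed covariate and without controls 1 and 2 it was 36. No paired analysis was possible because the labels number every animal separately and the groups share no number. At room temperature, Scd rests on 0 to 70 counts per library, which limits its fold.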
